A study of Homo sapiens with 12 samples.

Results

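Keratins are the intermediate filament proteins of epithelial cells, and 7 keratin genes are described here as read in A549, a human line from a lung adenocarcinoma. They are KRT7, KRT8, KRT18, KRT19, KRT80, KRT81 and KRT86, found by name in the deposited gene count table, which holds 55 keratin genes among 40605 rows. They were selected on results of these same libraries, so their levels and the contrasts between library sets are given as descriptions with no test. All 7 had exactly 1 row and all 7 passed the filter on low counts, which left 13838 tested genes.

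The cells carry a tetON construct in which doxycycline switches on DYRK1B, a dual-specificity protein kinase. Per the labels there were 4 groups of 3 libraries: WT with doxycycline, WT control without it, Y273F with doxycycline, and Y273F control without it. WT denotes wild-type DYRK1B, and Y273F the form with phenylalanine in place of the tyrosine that the kinase phosphorylates on itself. All groups share the A549 background and 7 days of culture, and doxycycline was used at 2 µg/ml. The series text speaks of 3 cell populations grown side by side, but does not say which libraries share one, and the labels do not say whether a line is a single clone. No line without a DYRK1B construct was analysed here, so doxycycline itself and DYRK1B cannot be told apart.

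A keratin filament is built from pairs of a type I (acidic) and a type II (basic) chain. KRT18 and KRT19 are type I, and the other 5 genes are type II. KRT8 and KRT18 form the pair of simple, single-layered epithelia, to which KRT7 and KRT19 are added in ductal and airway-type epithelia. KRT80 is a less studied type II keratin, and KRT81 and KRT86 belong to the hair keratins, which harden hair shafts but are also read in some carcinomas.

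Libraries are numbered 1 to 12 in the labels, with 4 to 6 titled WT doxycycline, 1 to 3 WT control, 10 to 12 Y273F doxycycline and 7 to 9 Y273F control. They held 2815673 to 22319921 counts, and the median library held 7667958. In CPM, which are counts scaled with TMM factors to a common library total, 3 counts equal 0.134 to 1.07. The titles do not follow the targeted gene. DYRK1B was read at 28.1, 4.00 and 7.74 CPM in libraries 4, 5 and 6 (WT doxycycline), against 5.71, 3.12 and 5.53 CPM in libraries 1, 2 and 3 (WT control). It was read at 4.58, 4.82 and 19.7 CPM in libraries 10, 11 and 12 (Y273F doxycycline), against 2.61, 12.4 and 3.19 CPM in libraries 7, 8 and 9 (Y273F control). The highest levels were thus in libraries 4, 8 and 12, one of them titled a control. Groups are therefore groups as titled, and the keratins are also given by the sets 2, 6 and 10; 1, 5 and 9; 4, 8 and 12; and 3, 7 and 11. No label gives these sets, and no condition is assigned to them.

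The 7 genes are related in sequence. Identity was taken over the aligned bases of the coding sequences, with gaps left out (GENCODE v29 transcripts, GRCh38). KRT81 and KRT86 were 94.2% identical, KRT7 and KRT8 76.8%, and the type I genes KRT18 and KRT19 66.6%. The lowest identity was 59.7%, between KRT7 and KRT18.

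Similar sequence matters for counting, because reads that fit several places are not assigned to a gene. The last 300 bases of the KRT81 transcript, near which 3′ tags start, aligned to the KRT86 transcript over only 63 bases, at 79.4% identity. The genes lie on opposite strands of chromosome 12, KRT81 at 52285913 to 52291534 within the span of KRT86 at 52274645 to 52309163 (RefSeq, GRCh38.p14), and strand was kept in the counts used. Since KRT86 had 16 to 244 counts and KRT81 had 14141 to 104705, the level of KRT86 is uncertain if even few KRT81 reads were assigned to it, which was not tested. Of the 7 genes 6 lie on chromosome 12 and KRT19 lies on chromosome 17. KRT8 (52897191 to 52949860) and KRT18 (52948855 to 52952906) are neighbours there with overlapping ends on opposite strands.

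KRT18 has a near copy of another kind, the processed pseudogene KRT18P8 on chromosome 18 (RefSeq, 9678186 to 9678798). The 60 coding bases of KRT18 nearest the stop codon that align to it without a gap (GENCODE v29, GRCh38) are shown with the matching stretch, with capitals at the bases that differ.
KRT18 (chr12:52952778-52952837, plus strand): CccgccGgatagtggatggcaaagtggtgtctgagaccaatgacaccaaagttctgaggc
KRT18P8 (chr18:9678248-9678307, minus strand): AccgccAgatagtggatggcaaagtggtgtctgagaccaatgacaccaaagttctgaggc
Only 2 of the 60 bases differ. Of the last 300 bases of the KRT18 transcript, 236 aligned to KRT18P8 at 93.6% identity.

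The 7 keratins made up 1.53% to 1.82% of all counts in libraries 2, 6 and 10, and 0.766% to 1.10% in the other 9. Because each 3′ tag stands for a transcript end, CPM values were compared between genes without division by length. KRT81 had the highest median level over the 12 libraries, at 4913 CPM, followed by KRT18 at 2885 CPM, KRT8 at 925 CPM and KRT7 at 851 CPM. KRT80 (40.0 CPM), KRT19 (36.3 CPM) and KRT86 (9.77 CPM) were read far less. Neighbours in this order often changed places. KRT18 exceeded KRT81 in 3 of 12 libraries, namely 2, 6 and 10, KRT8 exceeded KRT7 in 7 of 12, and KRT80 exceeded KRT19 in 8 of 12. KRT81 stood above KRT8, KRT7 above KRT80, and KRT19 above KRT86 in 12 of 12. KRT81 varied least, with its highest library 1.35 times its lowest, and KRT80 most, at 7.65 times.

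None of the 7 keratins passed in any titled comparison with edgeR's quasi-likelihood test, at a Benjamini-Hochberg adjusted p under 0.05. No gene at all did: the share of tested genes called was 0.00% for doxycycline in the WT line, 0.00% for doxycycline in the Y273F line, 0.00% for the difference of these effects and 0.00% for Y273F control against WT control. Genes with an unadjusted p under 0.05 numbered 134, 225, 165 and 460 in that order. DESeq2 also called 0 genes (116, 232, 144 and 481 at an unadjusted p under 0.05), as did limma-voom (158, 223, 161 and 478). The p-values measure only the spread between these libraries.

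**Figure D1:**
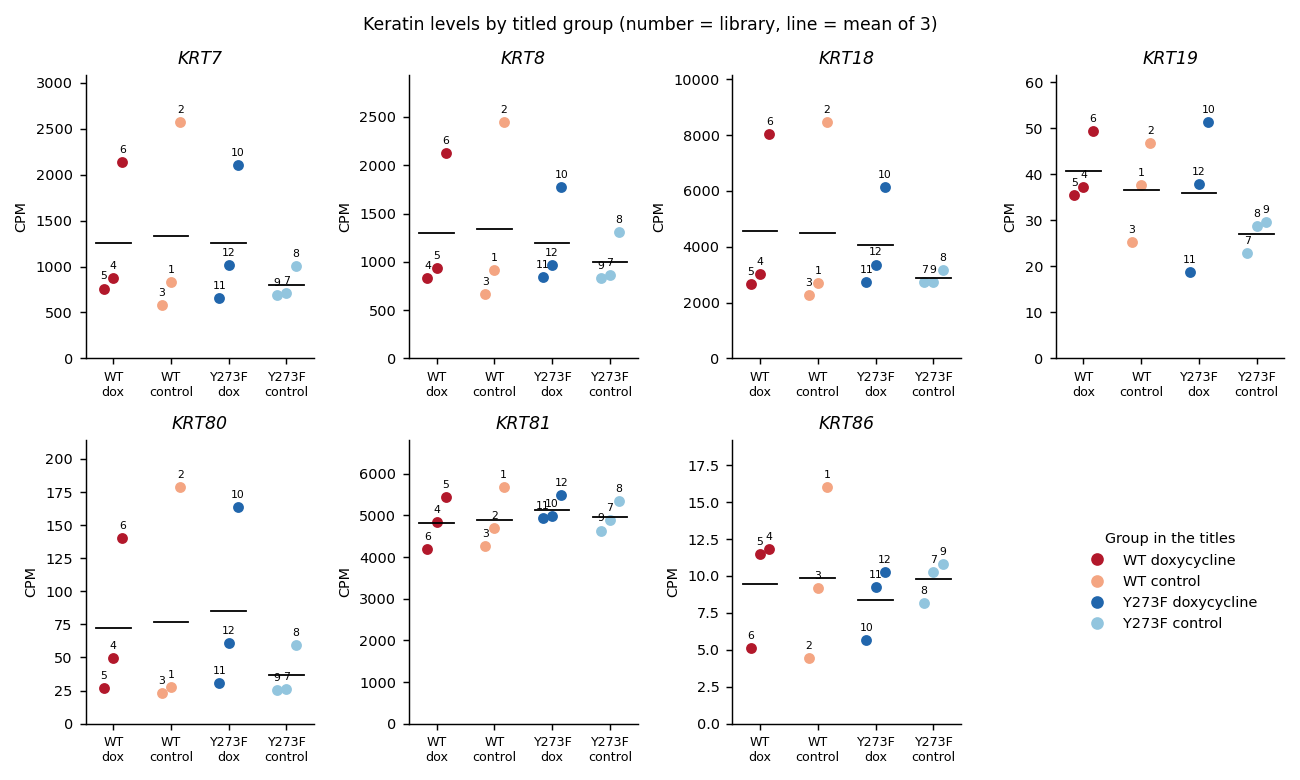
CPM (vertical axes, from 0) of each keratin in the 12 libraries by titled group, with library numbers beside the points and lines at the mean of 3. In KRT7, KRT8, KRT18, KRT19 and KRT80 the highest points are libraries 2, 6 and 10, which fall into WT control, WT doxycycline and Y273F doxycycline, and the same libraries are the lowest in KRT86.

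For WT doxycycline against WT control as titled, the keratins' log2 fold changes lay between -0.08 and 0.16. Their median was -0.05, beside -0.0017 over all tested genes. DYRK1B itself had a log2 fold change of 1.44 in this comparison (SE 0.82, edgeR adjusted p = 0.9997). KRT18, the abundant type I chain, averaged 4580 ± 2998 CPM in WT doxycycline libraries and 4474 ± 3469 CPM in WT control libraries (SD, n = 3 each), and the log2 fold change was 0.034 (SE 0.53). Its type II partner KRT8 averaged 1299 ± 719 CPM in WT doxycycline and 1343 ± 966 CPM in WT control libraries, a log2 fold change of -0.05 (SE 0.50). Each group holds 1 library in which KRT18 and KRT8 stand far above its companions, library 6 among WT doxycycline and library 2 among WT control. KRT81, which has no such library, averaged 4823 ± 627 CPM in WT doxycycline and 4881 ± 721 CPM in WT control libraries, a log2 fold change of -0.02 with a 95% interval from -0.32 to 0.28. A change of KRT80 is bounded far less well, with an interval from -1.95 to 1.81. Without libraries 2, 6 and 10 the log2 fold changes turned to 0.57 for KRT80, 0.21 for KRT7 and 0.16 for KRT8. The titled groups did not overlap in 3.27% of tested genes and in 0 of the 7 keratins. Adjusted p was 0.9997 for each keratin.

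For Y273F doxycycline against Y273F control the log2 fold changes ran from -0.21 for KRT86 to 1.21 for KRT80, with a median of 0.40 beside 0.0052 over all tested genes. KRT80 averaged 84.9 ± 69.6 CPM in Y273F doxycycline libraries and 37.0 ± 19.5 CPM in Y273F control libraries (SD, n = 3 each; SE of the log2 fold change 0.88, edgeR adjusted p = 0.992). KRT7 averaged 1260.4 ± 754 CPM in Y273F doxycycline and 802 ± 174 CPM in Y273F control libraries, a log2 fold change of 0.65 (SE 0.59). KRT18 averaged 4071 ± 1808 CPM in Y273F doxycycline and 2881 ± 258 CPM in Y273F control libraries, a log2 fold change of 0.50 (SE 0.54). Library 10 is the only one of libraries 2, 6 and 10 in the Y273F line. Without libraries 2, 6 and 10 the log2 fold changes were 0.41 for KRT80, 0.07 for KRT7, 0.08 for KRT18 and -0.14 for KRT8, against 0.26 for KRT8 with all libraries. The median keratin, KRT19, was 0.40 with all libraries and 0.07 without library 10 alone. Groups did not overlap in 10.9% of tested genes and in 0 of the 7 keratins.

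The difference of the doxycycline effects (Y273F minus WT) was 1.28 for KRT80 (SE 1.23), 0.73 for KRT7 (SE 0.83) and 0.07 for KRT81 (SE 0.19) on the log2 scale, with an edgeR adjusted p of 0.9997 for all 7. Without libraries 2, 6 and 10 it was -0.17 for KRT80 and -0.14 for KRT7. Y273F control against WT control sets the lines side by side without doxycycline as titled. Its log2 fold changes ran from -1.07 for KRT80 (SE 0.88) to 0.02 for KRT81 (SE 0.14). These used the same control libraries as the doxycycline comparisons. Groups did not overlap in 10.8% of tested genes and in 0 of the 7 keratins. Without libraries 2, 6 and 10 KRT80 turned to 0.44, KRT7 to 0.18, KRT18 to 0.21 and KRT8 to 0.33.

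**Figure D2:**
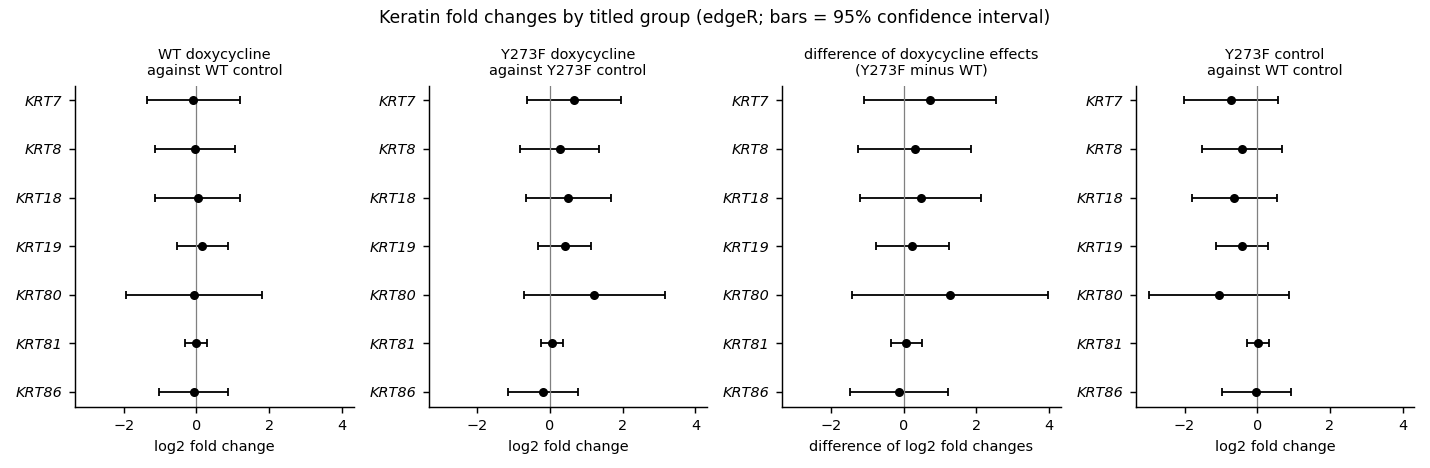
Log2 fold changes (horizontal axes) of the 7 keratins in the 4 titled comparisons with 95% confidence intervals from edgeR. Every interval includes 0, and KRT81 has the narrowest and KRT80 the widest in each comparison.

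In libraries 2, 6 and 10, 5 of the 7 keratins lay wholly above libraries 1, 5 and 9, 1 lay wholly below and 1 overlapped. Of all tested genes 27.2% lay wholly above and 27.0% wholly below in this contrast, so that separation in itself is common. The median log2 ratio of set medians was 1.22 for the keratins and -0.01 for all tested genes.

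The simple-epithelium pair moved together. KRT18 was read at 8473, 8036 and 6125 CPM in libraries 2, 6 and 10, against 2688, 2678 and 2745 CPM in libraries 1, 5 and 9. KRT8 was read at 2449, 2128 and 1776 CPM in libraries 2, 6 and 10, against 913, 937 and 836 CPM in libraries 1, 5 and 9. The medians differed 2.99-fold for KRT18 and 2.33-fold for KRT8, with library 10 the lowest of its set for both. The ratio of KRT18 to KRT8 stayed between 2.44 and 3.78 over the 12 libraries, at 3.45 to 3.78 in libraries 2, 6 and 10 and 2.86 to 3.28 in libraries 1, 5 and 9. KRT18 relative to the sum of KRT7 and KRT8 was narrower still, from 1.38 to 1.89 over the 12 libraries.

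KRT7, the type II keratin of ductal and lung epithelium, was read at 2575, 2133 and 2107 CPM in libraries 2, 6 and 10, against 829.5, 760.5 and 688 CPM in libraries 1, 5 and 9. KRT80 was read at 179, 140.1 and 163 CPM in libraries 2, 6 and 10, against 28.0, 27.3 and 25.4 CPM in libraries 1, 5 and 9. The ratio of medians was 2.80 for KRT7 and 5.98 for KRT80, the largest among the 7 genes. KRT19, the smallest keratin and the second type I gene, differed less, with 46.8, 49.5 and 51.4 CPM in libraries 2, 6 and 10 and 37.7, 35.4 and 29.6 CPM in libraries 1, 5 and 9.

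The hair keratins did not share this direction. KRT81 was read at 4693, 4191 and 4978 CPM in libraries 2, 6 and 10, against 5677, 5444 and 4637 CPM in libraries 1, 5 and 9, so the sets overlapped. KRT86 was read at 4.46, 5.11 and 5.63 CPM in libraries 2, 6 and 10, against 16.0, 11.5 and 10.8 CPM in libraries 1, 5 and 9, a ratio of medians of 0.445. In libraries 2, 6 and 10 KRT86 rested on 20, 37 and 16 counts. Among the type II genes of the 7, KRT81 therefore made up 47.4% to 55.1% of the counts in libraries 2, 6 and 10, and 69.2% to 76.9% in the other 9. Type I relative to type II counts among the 7 genes was 0.684 to 0.941 in libraries 2, 6 and 10, and 0.365 to 0.464 in the other 9. Keratins outside the 7, such as the type I gene KRT10, were not included.

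**Figure D3:**
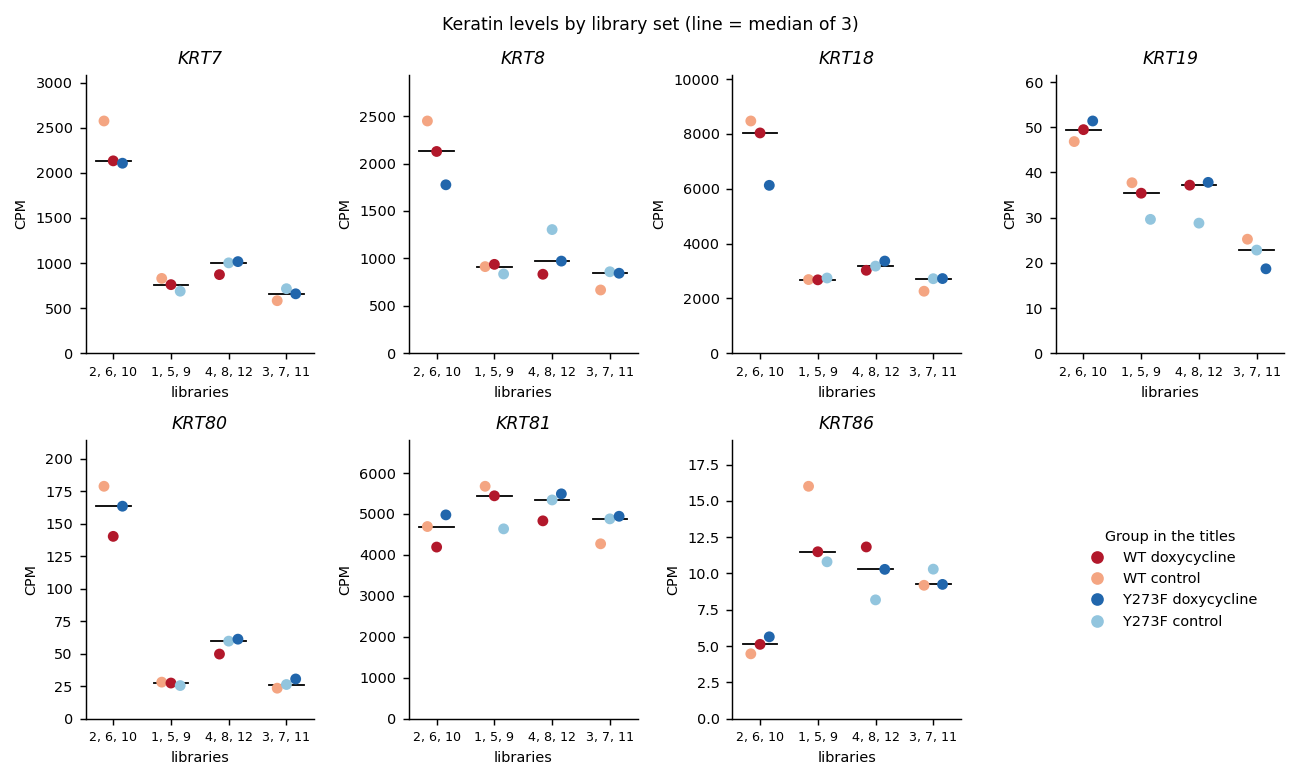
CPM (vertical axes, from 0) of each keratin by library set, coloured by titled group, with lines at the median of 3. KRT7, KRT8, KRT18, KRT19 and KRT80 stand higher in libraries 2, 6 and 10 than in each of the other 9. KRT86 stands lower in libraries 2, 6 and 10, and KRT81 overlaps.

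Libraries 4, 8 and 12, those with the highest DYRK1B CPM, were set beside libraries 3, 7 and 11. Of the keratins 4 lay wholly above, 0 below and 3 overlapped, beside 8.79% of all tested genes wholly above and 8.53% wholly below. KRT80 was read at 49.6, 59.5 and 61.1 CPM in libraries 4, 8 and 12, against 23.4, 26.2 and 30.4 CPM in libraries 3, 7 and 11, a ratio of medians of 2.27. KRT7 was read at 872, 1002 and 1016 CPM in libraries 4, 8 and 12, against 583, 716 and 659 CPM in libraries 3, 7 and 11, a ratio of 1.52. KRT19 had 37.2, 28.8 and 37.8 CPM in libraries 4, 8 and 12, against 25.2, 22.8 and 18.7 CPM in libraries 3, 7 and 11, a ratio of 1.63. That ratio was larger than the 1.40 of KRT19 in libraries 2, 6 and 10 over libraries 1, 5 and 9. KRT18 was the closest of the 4, at 3026, 3179 and 3362 CPM in libraries 4, 8 and 12, against 2262, 2719 and 2724 CPM in libraries 3, 7 and 11.

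KRT8 overlapped between these sets, with 833, 1304 and 972 CPM in libraries 4, 8 and 12, and 667, 859 and 844 CPM in libraries 3, 7 and 11. Library 8, titled Y273F control, held the highest KRT8 value outside libraries 2, 6 and 10 and the lowest ratio of KRT18 to KRT8, 2.44. KRT81 had 4832, 5343 and 5492 CPM in libraries 4, 8 and 12, and 4271, 4881 and 4944 CPM in libraries 3, 7 and 11. KRT86 had 11.8, 8.18 and 10.3 CPM in libraries 4, 8 and 12, and 9.19, 10.3 and 9.25 CPM in libraries 3, 7 and 11. Both hair keratins overlapped.

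Libraries 3, 7 and 11 overlapped libraries 1, 5 and 9 for most of the keratins. Of the keratins 0 lay wholly above, 2 below and 5 overlapped, beside 9.42% of all tested genes wholly above and 9.89% wholly below. The 2 below were KRT19, with a ratio of medians of 0.645, and KRT86, with 0.804. KRT80, at a ratio of 0.959, and KRT18, at 1.01, were nearly level.

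The pseudogenes add a detail to KRT18. The keratin pseudogenes together held 42994 counts over the 12 libraries, 90.6% of them at KRT18P8. KRT18P8 had 0.835 and 0.762 reads per 100 KRT18 reads in libraries 2 and 6, but 17.9 in library 10 and 12.9 to 17.7 in the other 9. Its level was 70.7, 61.2 and 1097 CPM in libraries 2, 6 and 10, and 353 to 537 CPM in the other 9. Library 10 thus shared high KRT18 with libraries 2 and 6 but not their low pseudogene share. KRT18P11, a copy on chromosome X, went the same way, with 3.79, 1.80 and 70.8 CPM in libraries 2, 6 and 10 and 14.8 to 32.8 CPM in the other 9. Counting the KRT18 pseudogenes with KRT18 gave 7355 to 8566 CPM in libraries 2, 6 and 10 and 2653 to 3948 CPM in the other 9, so the sets stayed apart. Pseudogenes of KRT8 held at most 0.319 reads per 100 KRT8 reads. Whether reads at KRT18P8 come from KRT18 transcripts was not tested.

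**Figure D4:**
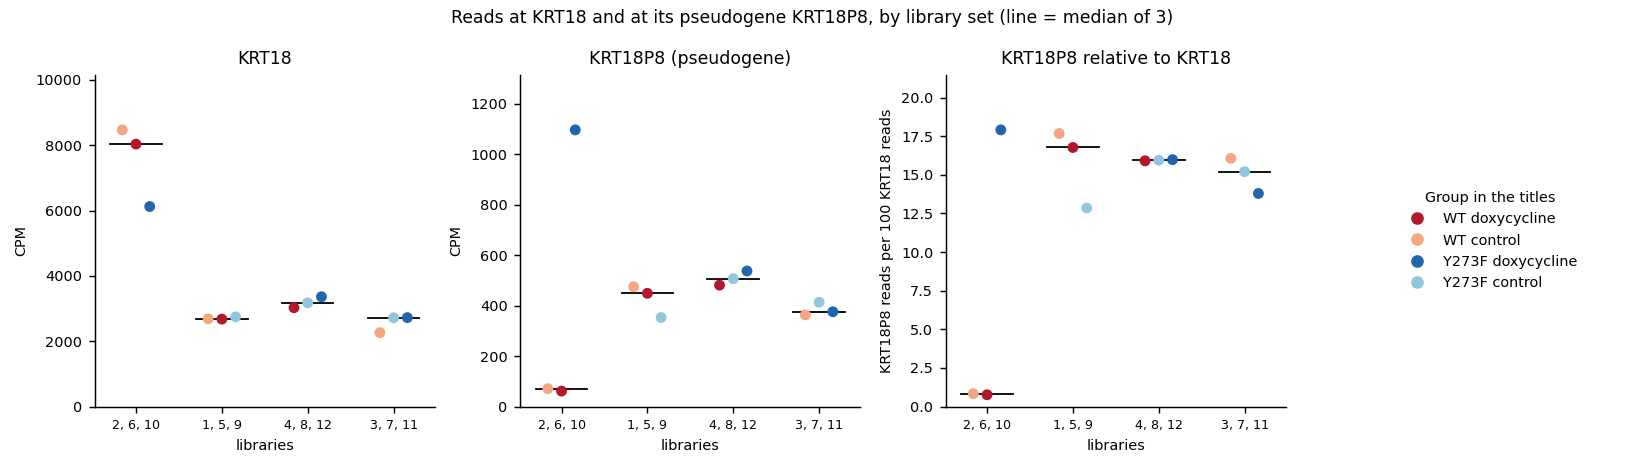
CPM of KRT18 and of its pseudogene KRT18P8, and KRT18P8 reads per 100 KRT18 reads (vertical axes, from 0), by library set, with lines at the median of 3. Libraries 2 and 6 lie below 1 read per 100 and library 10 at 17.9, beside 12.9 to 17.7 in the other 9.

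The genes whose patterns came nearest to a keratin's were found by the root mean square difference of log2 CPM, centred on each gene's mean over the 12 libraries, among tested genes with at least 20 CPM. Among the keratins themselves KRT7 and KRT18 were closest (0.147 log2 units), then KRT8 and KRT18 (0.166) and KRT7 and KRT8 (0.197). KRT80 and KRT86 were farthest apart (1.52). Nearest to KRT7 were ADA, which encodes adenosine deaminase (0.109), CMTM3 (0.152), CAVIN1, a coat protein of caveolae (0.173), SH3BGRL3 (0.174) and ABHD4 (0.175). Nearest to KRT18 were CAPN2, a calpain subunit (0.133), TUBA1A, an alpha-tubulin (0.134), the cytokine gene IL18 (0.136), MAP1LC3B, an autophagosome protein (0.138), and GPX1, a glutathione peroxidase (0.141). CAPN2, GPX1 and MAP1LC3B were also the nearest to KRT8 (0.137, 0.141 and 0.147), followed by CORO1C, an actin-binding coronin (0.159), and SPECC1 (0.161). Nearest to KRT80 were CCDC80 (0.197), EFR3B (0.211), TNFRSF12A, the receptor of the cytokine TWEAK (0.213), MELTF (0.218) and HSPG2, which encodes perlecan (0.222). KRT86 had ABCC3, an efflux transporter (0.172), ARHGAP26 (0.176), PLPP2 (0.178), NUMA1, a spindle protein (0.181), and COG7 (0.184). The SD of log2 CPM of KRT19 and KRT81 was too small (0.45 and 0.14) for the rule to name neighbours.

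The other keratin genes were mostly silent. Of the 48 in the table, 27 had no count in any library and 5 were tested, and none of the 4 tested type I and type II genes passed. The remaining tested gene was on neither the type I nor the type II list, and its values are not given here. KRT5, KRT6A and KRT14, which mark basal and squamous cells, were among those with no count. KRT10, a type I keratin of differentiating epidermis, averaged 227 CPM, above KRT19, KRT80 and KRT86. It had 174, 188 and 172 CPM in libraries 2, 6 and 10, and 202 to 309 CPM in the other 9, the reverse of KRT18. KRT4, a type II keratin of wet stratified epithelia, had 4.91, 4.70 and 3.87 CPM in libraries 2, 6 and 10 and 26.1, 27.8 and 27.0 CPM in libraries 1, 5 and 9. It was highest in libraries 4, 8 and 12, at 38.5, 40.2 and 39.6 CPM, against 23.7, 25.6 and 23.1 CPM in libraries 3, 7 and 11. KRT20, an intestinal type I keratin, had 0.223, 0.553 and 0 CPM in libraries 2, 6 and 10, where 0 counts in library 10 allow up to 1.07 CPM, and 7.84, 9.65 and 11.7 CPM in libraries 1, 5 and 9. Library 4 was as low, at 0.143 CPM from 1 count. KRT15, a type I keratin of basal layers, had 4.68, 5.94 and 5.28 CPM in libraries 2, 6 and 10, and 0.327 to 3.18 CPM in the other 9.

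**Figure D5:**
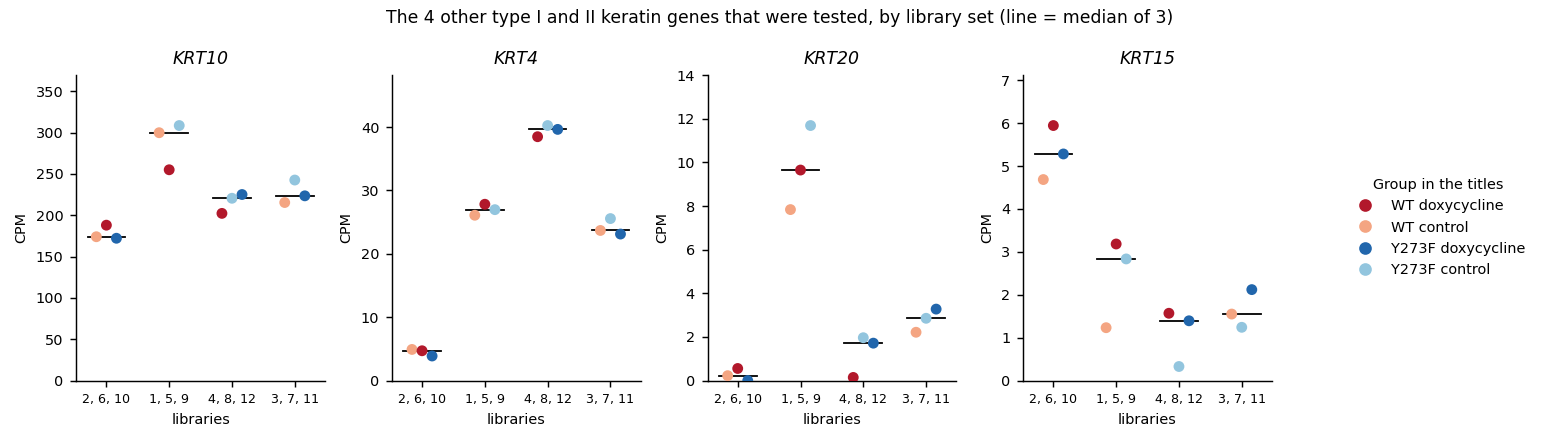
CPM (vertical axes, from 0) of KRT10, KRT4, KRT20 and KRT15 by library set, coloured by titled group, with lines at the median of 3. KRT10 and KRT4 are lowest in libraries 2, 6 and 10, KRT20 is lowest there and in library 4, and KRT15 is highest in libraries 2, 6 and 10.

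Genes that anchor or regulate keratin filaments were read for the same contrasts. Of 22 desmosome and plakin genes 16 were tested and 0 passed in any titled comparison. Their median log2 fold change was 0.01 for doxycycline in the WT line and 0.19 for doxycycline in the Y273F line. Of the 16 genes 10 lay wholly above libraries 1, 5 and 9 in libraries 2, 6 and 10 and 2 wholly below, beside 27.2% and 27.0% of all tested genes. Their median log2 ratio was 0.28, against -0.01 over all tested genes. PLEC, which encodes the linker plectin, had 173 to 272 CPM in libraries 2, 6 and 10 and 82.1 to 106 CPM in libraries 1, 5 and 9. The desmosomal cadherin gene DSG2 had 172 to 203 CPM in libraries 2, 6 and 10 and 109 to 112 CPM in libraries 1, 5 and 9. PERP, a membrane protein of desmosomes, had 231 to 273.5 CPM in libraries 2, 6 and 10 and 177 to 223 CPM in libraries 1, 5 and 9. Plakoglobin, JUP, went the other way, at 166 to 180.0 CPM in libraries 2, 6 and 10 and 185 to 205 CPM in libraries 1, 5 and 9. All 8 genes for keratin-binding and regulating proteins were tested and 0 passed, with median log2 fold changes of -0.02 for doxycycline in the WT line and 0.13 in the Y273F line. Of these 5 lay wholly above libraries 1, 5 and 9 in libraries 2, 6 and 10, and 1 wholly below, beside 27.2% and 27.0% of all tested genes. Their median log2 ratio was 0.46, against -0.01 over all tested genes. SFN, the 14-3-3 sigma gene whose product binds KRT18, had 266 to 297 CPM in libraries 2, 6 and 10 and 110 to 117 CPM in libraries 1, 5 and 9. The small heat shock gene HSPB1 had 732 to 981 CPM in libraries 2, 6 and 10 and 476 to 558 CPM in libraries 1, 5 and 9. The kinase gene CSNK1A1 had 236 to 306 CPM in libraries 2, 6 and 10 and 187 to 207 CPM in libraries 1, 5 and 9. The co-chaperone gene DNAJB6 had 95.1 to 117 CPM in libraries 2, 6 and 10 and 68.5 to 77.2 CPM in libraries 1, 5 and 9.

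Of 15 other intermediate filament genes 10 were tested and 0 passed, with median log2 fold changes of 0.006 for doxycycline in the WT line and 0.27 in the Y273F line. Of these 5 lay wholly above libraries 1, 5 and 9 in libraries 2, 6 and 10, and 3 wholly below, beside 27.2% and 27.0% of all tested genes. Their median log2 ratio was 0.49, against -0.01 over all tested genes. Vimentin, VIM, the filament of mesenchymal cells, had 1924 to 2318 CPM in libraries 2, 6 and 10 and 822 to 1010.0 CPM in libraries 1, 5 and 9. The A-type lamin gene LMNA had 515 to 598 CPM in libraries 2, 6 and 10 and 343 to 425 CPM in libraries 1, 5 and 9. The B-type lamin gene LMNB1 was lower, at 55.3 to 71.0 CPM in libraries 2, 6 and 10 and 90.1 to 106 CPM in libraries 1, 5 and 9. LMNB2 likewise had 54.0 to 63.1 CPM in libraries 2, 6 and 10 and 66.4 to 76.6 CPM in libraries 1, 5 and 9. Of 20 transcription factor genes known for epithelial keratin genes 16 were tested and 0 passed, with median log2 fold changes of -0.03 for doxycycline in the WT line and -0.01 in the Y273F line. Of these 7 lay wholly above libraries 1, 5 and 9 in libraries 2, 6 and 10, and 6 wholly below, beside 27.2% and 27.0% of all tested genes. Their median log2 ratio was -0.15, against -0.01 over all tested genes. The epithelial ETS factor gene ELF3 had 170.1 to 210.2 CPM in libraries 2, 6 and 10 and 263 to 277 CPM in libraries 1, 5 and 9. KLF5 had 44.8 to 45.4 CPM in libraries 2, 6 and 10 and 129 to 132 CPM in libraries 1, 5 and 9. The AP-2 factor gene TFAP2A had 60.4 to 79.2 CPM in libraries 2, 6 and 10 and 46.2 to 56.0 CPM in libraries 1, 5 and 9. ETS2 had 63.4 to 80.5 CPM in libraries 2, 6 and 10 and 47.4 to 54.5 CPM in libraries 1, 5 and 9.

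Markers of some other cell types also moved with libraries 2, 6 and 10. In bulk RNA fewer cells of a type and less RNA per cell cannot be told apart. The 7 fibroblast markers, none of them at 0 in all libraries, summed to 147 to 210.1 CPM in libraries 2, 6 and 10, and 14.3 to 31.6 CPM in the other 9. Only 2 of the 7 fibroblast markers were tested, COL1A1 and LUM. COL1A1, at 135 to 195 CPM in libraries 2, 6 and 10, made up most of the sum, and LUM had 11.3 to 13.6 CPM. The 6 smooth muscle markers summed to 158 to 178 CPM in libraries 2, 6 and 10, and 13.2 to 30.4 CPM in the other 9. Only 3 of the 6 were tested, TAGLN, ACTA2 and CNN1, and DES was at 0 in all libraries. In libraries 2, 6 and 10 TAGLN led with 120.0 to 136 CPM, before ACTA2 with 34.5 to 36.4 CPM. The 6 epithelial markers summed to 217 to 257 CPM in libraries 2, 6 and 10, and 256 to 367 CPM in the other 9. Among them CDH1, the E-cadherin gene, had 24.3 to 30.3 CPM in libraries 2, 6 and 10 and 43.4 to 49.9 CPM in libraries 1, 5 and 9. EPCAM had 4.58 to 6.69 CPM in libraries 2, 6 and 10 and 29.3 to 31.9 CPM in libraries 1, 5 and 9. CLDN4 went the other way, at 10.6 to 17.0 CPM in libraries 2, 6 and 10 and 9.03 to 10.1 CPM in libraries 1, 5 and 9. Of the 5 tested epithelial markers 1 lay wholly above in this contrast and 4 wholly below, beside 27.2% and 27.0% of all tested genes. The 6 basal or squamous markers, led by SOX2, summed to 13.2 to 15.6 CPM in libraries 2, 6 and 10 and 29.5 to 53.4 CPM in the other 9, with KRT5, KRT6A and KRT14 at 0. The 8 alveolar type II markers, named for the cell type that A549 cells are used to model, summed to 16.2 to 23.0 CPM over all libraries, mostly ABCA3, with SFTPB at 0. The 5 endothelial markers reached at most 1.06 CPM, with VWF and KDR at 0. The 6 leukocyte markers overlapped, with sums of 6.69 to 12.0 CPM in libraries 2, 6 and 10 and 9.34 to 12.2 CPM in libraries 1, 5 and 9. The part of other cell types in the keratin levels was not tested.

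The reference promoter table held a window for 1 of the 7 genes, KRT8 (RefSeq, GRCh38.p14, chr12:52926420-52926719, minus strand). The start it is drawn around lies 19851 bases upstream of that of the transcript KRT8-201 (GENCODE v29), so it need not be the start used in these cells. Searched on both strands, it held 3 matches to CANNTG, an E box, and 1 to GGAATG, bound by TEAD factors, with no overlap between them. These motifs occur in 68.68% and 14.03% of all promoter windows. It held no TATAAA (11.53% of windows), GGGCGG (44.95%) or TGANTCA (7.71%).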

How the data were processed

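For 12 libraries the authors deposited raw counts of reads per gene, on the transcript strand, on the opposite strand and unstranded, and a merged table of named genes. Per the labels' protocols they were made with the QuantSeq FWD V2 kit, whose reads start near the polyadenylated end. STAR and GRCh38.p14 are named in the submitters' processing notes. Its version, the annotation and the treatment of molecular identifiers are not stated there. The transcript-strand counts were used, and all 40605 rows of the merged table equal one of their rows. Reads in no gene (35.5% to 43.2%, among them 5.20% to 7.96% multimapping) stayed out. The opposite strand held 7.25% to 8.07% of counts.

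Genes were filtered with filterByExpr (minimum count 10), scaled with TMM factors and tested with edgeR 4.0.16 (glmQLFit, glmQLFTest, R 4.3.3) in 1 model with a mean per titled group, adjusted over 13838 genes. Alternatives were DESeq2 1.42.0, limma-voom (limma 3.58.1), other filters and tables, and leaving out libraries. The fits were also run on simulated counts, drawn without shifts shared by library sets. That run cannot show how the fits handle sets that fall across the titled groups. Coding sequences were aligned with Biopython 1.88, taking the transcript with the longest coding sequence; protein sequences were not used here. Counting floors cover counting error only. The named genes beside the 7 keratins were DYRK1B, up to 5 nearest genes of each keratin with an SD of log2 CPM above 0.5, and of each list those past the threshold or else up to 4 with the highest mean CPM. Members and lists were chosen with earlier results of these data known.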

Additional observations from a re-analysis of the deposited data

How the results depend on the processing

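No keratin passed in any of the 4 titled comparisons under any of the 21 alternatives, with a smallest adjusted p of 0.805 (edgeR, DESeq2 or limma-voom). The number of genes called stayed at 0 under every alternative but some that left out 1 library, where it was 0 to 1 in each comparison other than WT doxycycline against WT control. The genes then called, seen only afterwards, were SLX1B without library 8, RPL32P18 without library 11 and FKBP1C without library 12. The following log2 fold changes of keratins turned sign. No label says that the replicate numbers pair libraries. Deviations of log2 CPM from the titled group means were correlated between groups. The correlation of same-numbered libraries was over 0.1 in 3 of 18 pairs. Among libraries 2, 6 and 10, which differ in number, it was 0.73 to 0.79, so a weaker pairing may not show. The replicate block called 0 genes in each comparison. Under the replicate block WT doxycycline against WT control gave 0.24 for KRT80, 0.012 for KRT7 and 0.059 for KRT8, and Y273F control against WT control 0.034 for KRT86. With limma-voom the same 4 were 0.37, 0.052, 0.043 and 0.077. Without libraries 2, 6 and 10 the values were, for WT doxycycline, 0.048 for KRT81, 0.57 for KRT80, 0.21 for KRT7 and 0.16 for KRT8; for Y273F doxycycline, -0.14 for KRT8; for the difference, 0.087 for KRT86, -0.12 for KRT18, -0.17 for KRT80, -0.14 for KRT7, -0.30 for KRT8 and -0.11 for KRT19; and for Y273F control against WT control, -0.012 for KRT81, 0.21 for KRT18, 0.44 for KRT80, 0.18 for KRT7 and 0.33 for KRT8. Those fits have 1 library fewer in 3 groups. Other causes were not tested.

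Leaving out each library in turn gave these ranges. For WT doxycycline against WT control they were -0.41 to 0.45 for KRT86, -0.11 to 0.11 for KRT81, -0.65 to 0.89 for KRT18, -0.98 to 1.49 for KRT80, -0.70 to 0.83 for KRT7, -0.60 to 0.72 for KRT8 and -0.050 to 0.37 for KRT19. For Y273F doxycycline against Y273F control they were -0.14 to 0.49 for KRT8, -0.0004 to 0.11 for KRT81, 0.07 to 0.71 for KRT19, 0.06 to 0.96 for KRT7, 0.08 to 0.72 for KRT18, 0.35 to 1.70 for KRT80 and -0.38 to -0.014 for KRT86, the lowest of KRT7, KRT8, KRT18, KRT19 and KRT80 each without library 10. For the difference they were -0.055 to 0.16 for KRT81, -0.65 to 0.20 for KRT86, -0.39 to 1.14 for KRT18, -0.28 to 2.19 for KRT80, -0.18 to 1.35 for KRT7, -0.46 to 0.86 for KRT8 and -0.086 to 0.55 for KRT19. For Y273F control against WT control they were -0.35 to 0.50 for KRT86, -0.062 to 0.15 for KRT81, -0.95 to 0.22 for KRT18, -1.55 to 0.49 for KRT80, -1.08 to 0.18 for KRT7, -0.74 to 0.34 for KRT8 and -0.64 to -0.22 for KRT19. For WT doxycycline and for the difference, both ends for KRT7, KRT8, KRT18 and KRT80 come from leaving out library 2 or 6. Of the log2 ratios of set medians, 202 of 210 alternative values moved by less than the spread between libraries. Depth limits KRT86 most.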
